A study of Mus musculus with 4 samples.

Results

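The genes described here encode proteins that coat, enlarge or help empty the lipid droplet, the organelle in which a cell stores triglyceride. They are the CIDE genes Cidea, Cideb and Cidec, the perilipin genes Plin2, Plin3, Plin4 and Plin5, the lipolysis cofactors G0s2 and Abhd5, and the droplet budding gene Fitm2. Members were chosen by name, and every probe that carried one of these names was used, which gave 10 genes of 31709 and 14 probes of 39429 on the array. All 10 genes and all 14 probes passed the filter on dim probes. They were measured in liver RNA from 4 IlrunKO mice and 4 wild-type (WT) mice. IlrunKO mice lack Ilrun, a regulator of inflammatory signalling and of blood lipids, in the whole body, so a difference in liver need not start in liver cells. All animals were C57BL/6 males kept on chow and fasted for 4 h, and neither their age nor the kind of Ilrun allele is given in the sources used here. Each of 4 Agilent arrays carried 1 IlrunKO and 1 WT liver in different dyes, the knockout being the red one (Cy5) on arrays 1 and 2 and the green one (Cy3) on arrays 3 and 4.

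A lipid droplet is a core of neutral lipid under a single phospholipid layer, and the proteins on that layer decide how readily lipases reach the core. Perilipins shield the core or hold lipases and their cofactors in place, while CIDE proteins gather where droplets touch and let lipid pass from the smaller to the larger one. In healthy liver the usual droplet proteins are Plin2, Plin3, Plin5 and Cideb. Plin4, Cidea and Cidec are best known from fat tissue, and Cidec and Cidea are also known as genes that fatty liver switches on.

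The probes on which the results turn are shown by the first 30 of their 60 bases, 5′ to 3′ in the sense of the transcript, as the deposited array files give them. They are shown because the probes of 1 gene did not always give the same value, and the stretches identify the probe behind each value. All letters are in lower case since no base is singled out.
Cidec A_55_P1969131: tttttccacgaatgagtgaatggtattaga
Cidec A_55_P1969128: tctatgacacatactcgctttcctatgacc
Plin4 A_51_P495780: cagcctgtgggtatgagacctgccctgaat
Plin5 A_55_P2104259: tccagagactcaattgctttgctgtttgtg
Abhd5 A_52_P273821: attgggcttcggaagaagtagtagacctaa
Abhd5 A_55_P2177233: ctttcctttctcctacacagaattaaaata
Abhd5 A_51_P407165: tcgacctcacaaatcacgactcgatgactt
Positions in the files are on mouse build mm9. The first Cidec probe lies at chr6:113374630-113374689 and the second at chr6:113378116-113378175, both on the minus strand, so the first is nearer the 3′ end of the gene, with 3486 bases between their centres. Plin4 (chr17:56240055-56240114), Plin5 (chr17:56251025-56251084) and Plin3 (chr17:56418429-56418488) all lie on the minus strand of chromosome 17. There were 10970 bases between the probe centres of Plin4 and Plin5 and 167404 between those of Plin5 and Plin3. The Abhd5 probes lie on the plus strand at chr9:122277200-122277259, chr9:122288857-122288916 and chr9:122289983-122290042, in the order printed. Whether a probe falls in a coding exon or an untranslated region was not assigned, since no mm9 annotation was used here.

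The labels held on the targeted gene: Ilrun (listed as D17Wsu92e) was 18.5-fold lower in IlrunKO liver, with log2 ratios from -4.56 to -4.04 on the 4 arrays. A second Ilrun probe stood at -2.15 ± 0.34 (SD, n = 4), but it was well above background in only 1 of 4 IlrunKO channels, so the drop may be larger than this value. No array was set apart by slide or scan, since all shared 1 of each. Between 60.0% and 67.3% of probes were well above background in a channel, and no spot of a gene probe was saturated.

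Across the 10 genes, the livers without Ilrun had the largest differences in Plin4 and Cidec, 2.92-fold and 2.90-fold higher on average, while Cideb, Plin2, Plin3 and Plin5 had mean log2 ratios between -0.17 and 0.00061. No gene passed an adjusted p of 0.05 in limma's fit with Benjamini-Hochberg adjustment over all 19668 genes tested, where 0.717% of genes rose and 0.656% fell. At an unadjusted p under 0.05 there were 6 of the 10 (Cidec, Plin4, Cidea, Abhd5, Plin3 and Fitm2), against 20.5% of all genes. Fitted probe by probe, 2 of the 14 probes passed, 1 of Cidec that rose and 1 of Abhd5 that fell, where 0.817% of all 24353 probes tested rose and 0.698% fell. The median log2 ratio of the 10 genes was -0.056, beside -0.0015 over all genes, with 5 members above 0 and 5 below. Cidea, Cidec and Plin4 were above 0 on all 4 arrays, as were 11.7% of all genes, and Plin2, Plin3 and Abhd5 were below 0 on all 4, as were 11.5% of all genes. A second model, which fits each channel on its own with the array as a random block, called Cidea, Cidec and Plin4 higher (6.78% of genes rose there) and Plin3 and Abhd5 lower (5.97% fell).

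**Figure D1:**
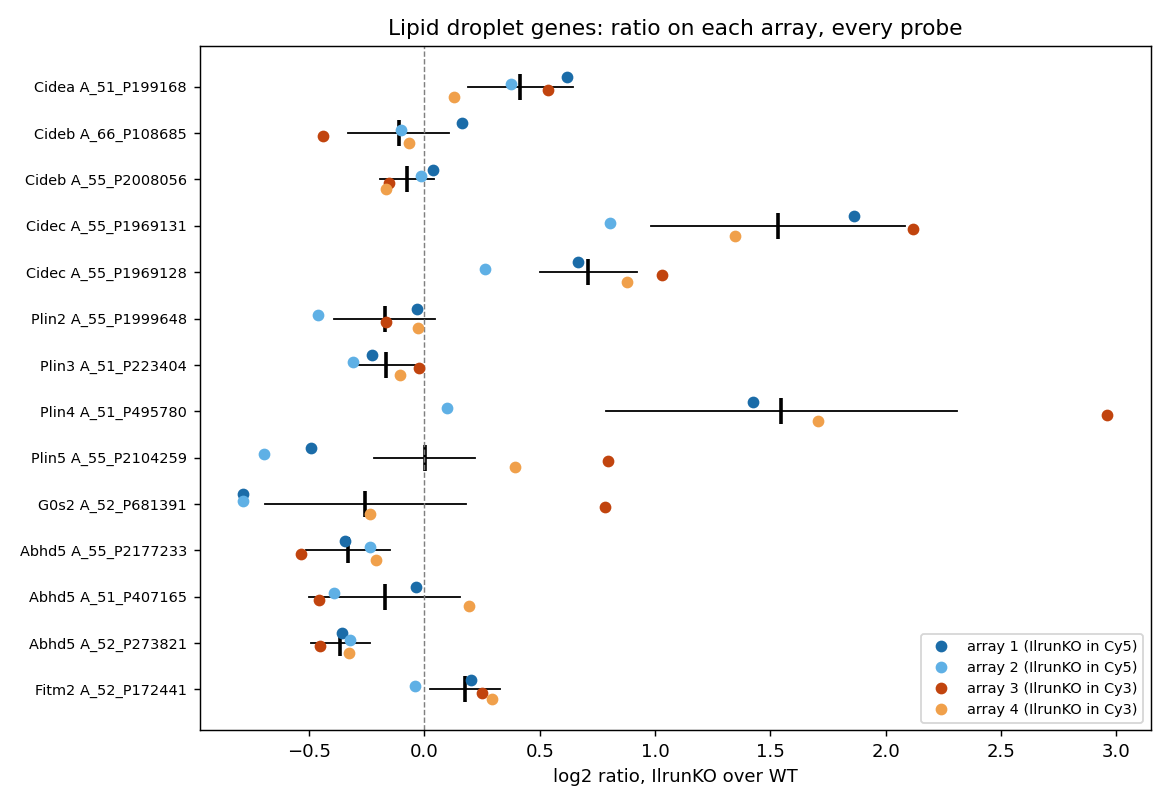
Log2 ratio of IlrunKO over WT (horizontal axis) for each of the 14 probes (rows), with 1 point per array coloured by array, a tick at the mean and a line for the 95% confidence interval of the fit with a dye term. Both Cidec probes and Plin4 lie to the right of 0 on every array, and the Plin5 points fall on both sides of 0 by dye orientation. The points of the Cideb, Plin2 and Plin3 probes lie between -0.46 and 0.16.

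Cidec, also called FSP27, drives the fusion-like transfer of lipid that makes large droplets. Its brighter probe read a log2 level (intensity after background correction and scaling of both channels) of 10.61, 9.18, 10.29 and 10.04 in the IlrunKO livers of arrays 1 to 4, and of 8.75, 8.37, 8.18 and 8.69 in the WT livers. The lowest knockout liver, that of array 2, was still above the highest WT liver. The log2 ratios were 1.86, 0.81, 2.12 and 1.35, a mean of 1.53 ± 0.58 (SD, n = 4) or 2.90-fold higher. The 95% interval of 0.98 to 2.09 leaves out the difference between dye orientations. Arrays 1 and 2 averaged 1.33 and arrays 3 and 4 averaged 1.73. The rise of Cidec missed the threshold narrowly (limma, adjusted p = 0.0544 among genes, 0.0517 among probes). Without array 2 the mean was 1.80 and the gene passed (limma, adjusted p = 0.0290), and it also passed without array 1 (1.27, adjusted p = 0.0424). It was far from passing without array 3 (1.34, adjusted p = 0.210) and without array 4 (1.73, adjusted p = 0.142). In each of those fits only 1 gene of the whole array passed, so the loss was not particular to Cidec.

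The dimmer Cidec probe, nearer the 5′ end, read 7.80, 7.14, 7.67 and 7.54 in IlrunKO and 7.13, 6.88, 6.64 and 6.66 in WT livers. The groups again did not overlap, with array 2 again the lowest of the knockouts, though only just above the highest WT liver. Its log2 ratios were 0.67, 0.26, 1.03 and 0.88, a mean of 0.71 ± 0.33 (SD, n = 4) or 1.64-fold higher, and this probe rose (limma, adjusted p = 0.0410). Arrays 1 and 2 averaged 0.46 and arrays 3 and 4 averaged 0.96. Without the dye term the probe did not pass (limma, adjusted p = 0.0779). The call was also lost without array 3 (0.67, adjusted p = 0.176) and without array 4 (0.75, adjusted p = 0.135), where only 1 probe of the whole array passed. The 2 probes ranked the arrays differently, but both put array 2 lowest and array 3 highest. The log2 ratio of the 3′ probe exceeded that of the other on every array, by 1.20, 0.54, 1.09 and 0.47.

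The gap between the Cidec probes was smaller with offset 0. An offset of 50, added to every intensity before logs, pulls the ratio of a dim probe toward 0 by construction. With offset 0 the dimmer probe stood at 1.07 and the brighter at 1.68. In the scanner's own processed signals, which were also median centred in place of loess, they stood at 1.39 and 1.75. The fold of Cidec was therefore 2.90 to 3.36 by the bright probe over those settings and 1.64 to 2.62 by the dim one.

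Cidea, the CIDE gene of brown fat and of fatty liver, was close to background. Its log2 level was 6.99, 6.89, 6.82 and 6.56 in IlrunKO and 6.37, 6.51, 6.29 and 6.43 in WT livers, well above background in all 4 knockout channels and in 3 of 4 WT channels. Every knockout liver was above every WT liver, the closest pair being the array 4 knockout and the array 2 WT liver. The log2 ratios of 0.62, 0.37, 0.54 and 0.13 gave a mean of 0.42 ± 0.22 (SD, n = 4), or 1.33-fold, which did not pass (limma, adjusted p = 0.101). The size of this difference is loosely fixed: it was 0.96 ± 0.63 with offset 0 and 2.12 ± 1.66 in the scanner's processed signals, where array 1 alone read 4.36. None of these passed the threshold.

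Cideb, the CIDE protein of normal hepatocytes, which serves the lipidation of very low density lipoproteins, had mean ratios near 0 after loess. Its brighter probe (chr14:56372942-56373001) gave 0.16, -0.10, -0.44 and -0.066, a mean of -0.11 ± 0.25 (SD, n = 4; limma, adjusted p = 0.534), with a 95% interval of -0.33 to 0.11. The second probe (chr14:56373658-56373717) gave -0.074 ± 0.10. At both probes the genotypes overlapped, and both were well above background in all 8 channels. The brighter probe was far less even with median centring in place of loess, at 0.68, 0.43, -1.59 and -0.65.

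**Figure D2:**
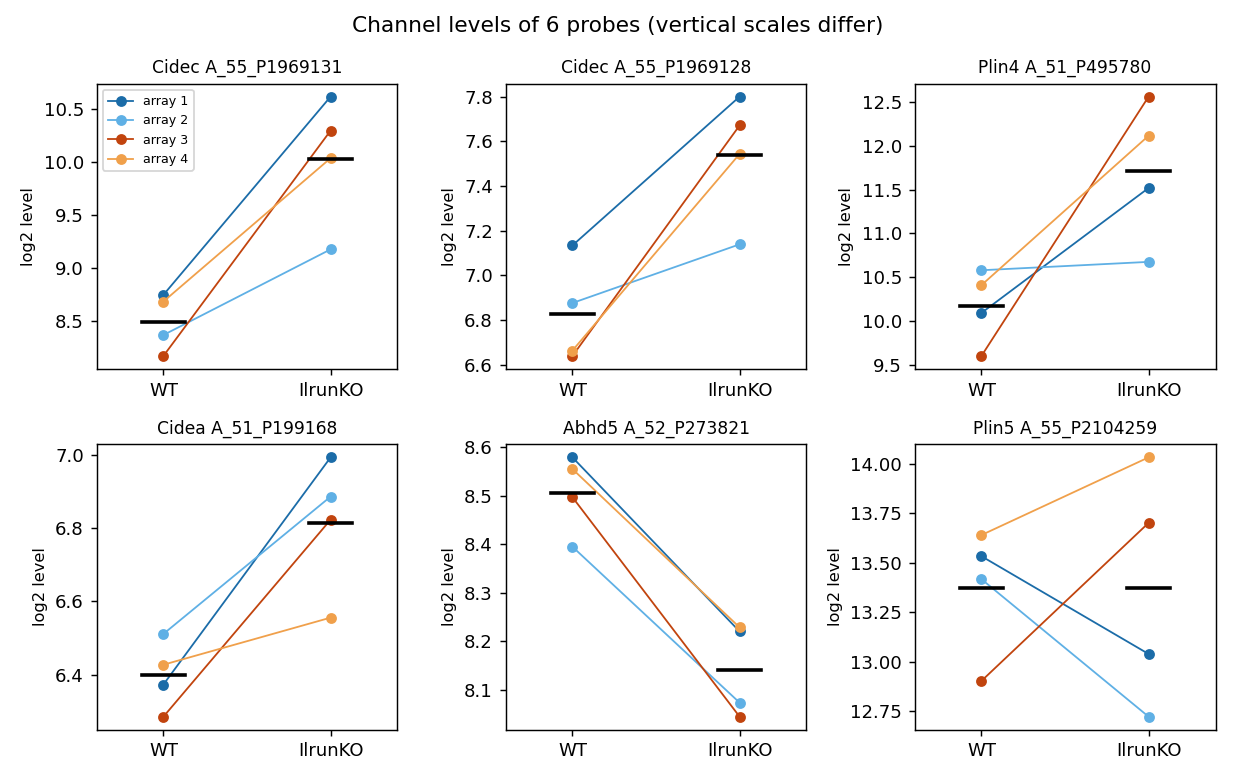
Log2 level in the WT and the IlrunKO channel of each array for 6 probes, with points joined within an array and a black bar at the mean of 4 livers; the vertical scale differs between panels. Knockout livers lie above all WT livers at both Cidec probes, Plin4 and Cidea and below all of them at the Abhd5 probe, while the lines of Plin5 cross.

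Plin4 is the perilipin of white fat that coats small, newly made droplets. Its log2 level was 11.52, 10.68, 12.56 and 12.12 in IlrunKO and 10.09, 10.58, 9.60 and 10.41 in WT livers. The groups did not overlap, but the knockout liver of array 2 was barely above the highest WT liver, which was on the same array. The log2 ratios were 1.43, 0.096, 2.96 and 1.71, a mean of 1.55 ± 1.18 (SD, n = 4) or 2.92-fold higher, which did not pass (limma, adjusted p = 0.0861). The 95% interval of 0.775 to 2.32 comes from the spread within each dye orientation and not from the whole spread over the arrays. Arrays 1 and 2 averaged 0.76 and arrays 3 and 4 averaged 2.33.

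Plin5, which tethers droplets to mitochondria in tissues that burn fat, had a mean ratio near 0 that was made of opposite values. Its level was 13.04, 12.72, 13.70 and 14.03 in IlrunKO and 13.53, 13.42, 12.90 and 13.64 in WT livers, so the groups overlapped. The log2 ratios were -0.49, -0.69, 0.80 and 0.39, below 0 where IlrunKO was in Cy5 and above 0 where it was in Cy3, with a mean of 0.00061 ± 0.71 (SD, n = 4; limma, adjusted p = 0.999). The interval of -0.22 to 0.22 leaves out this split, which the dye term takes up. The split depended on the normalization. With median centring in place of loess the ratios were -0.061, -0.27, -0.21 and -0.091, all below 0. At Cideb, Plin2 and Plin3 median centring instead set the orientations apart. There the ratios were above 0 on arrays 1 and 2 and below 0 on arrays 3 and 4. Which normalization lies nearer the true ratios was not tested. The orientations hold different mice, so a dye effect and a difference between mouse pairs cannot be told apart. The log2 ratio of Plin4 was above that of its neighbour Plin5 on every array, by 1.92, 0.79, 2.16 and 1.31. These differences between ratios had an SD of 0.62.

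Plin2, the main droplet coat of hepatocytes and a common marker of stored fat, had a mean ratio below 0. Its level was 14.10, 13.93, 13.89 and 14.21 in IlrunKO and 14.14, 14.39, 14.06 and 14.23 in WT livers, and the groups overlapped. The log2 ratios of -0.033, -0.46, -0.17 and -0.026 averaged -0.17 ± 0.20 (SD, n = 4; limma, adjusted p = 0.340), and the 95% interval ran from -0.39 to 0.049. In this fit, after loess and with the dye term, that interval leaves out a rise of the size seen at either Cidec probe. The interval does not take in differences between dye orientations. Median centring in place of loess gave ratios of 0.45, 0.022, -1.23 and -0.54, with an SD of 0.72.

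Plin3, a perilipin that moves between the cytosol and nascent droplets, stood at -0.23, -0.31, -0.022 and -0.11, a mean of -0.17 ± 0.13 (SD, n = 4; limma, adjusted p = 0.163). Its levels were 11.18 to 11.43 in IlrunKO and 11.42 to 11.54 in WT livers, which overlapped only at the edges. The Plin2 probe lies at chr4:86302847-86302906.

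**Figure D3:**
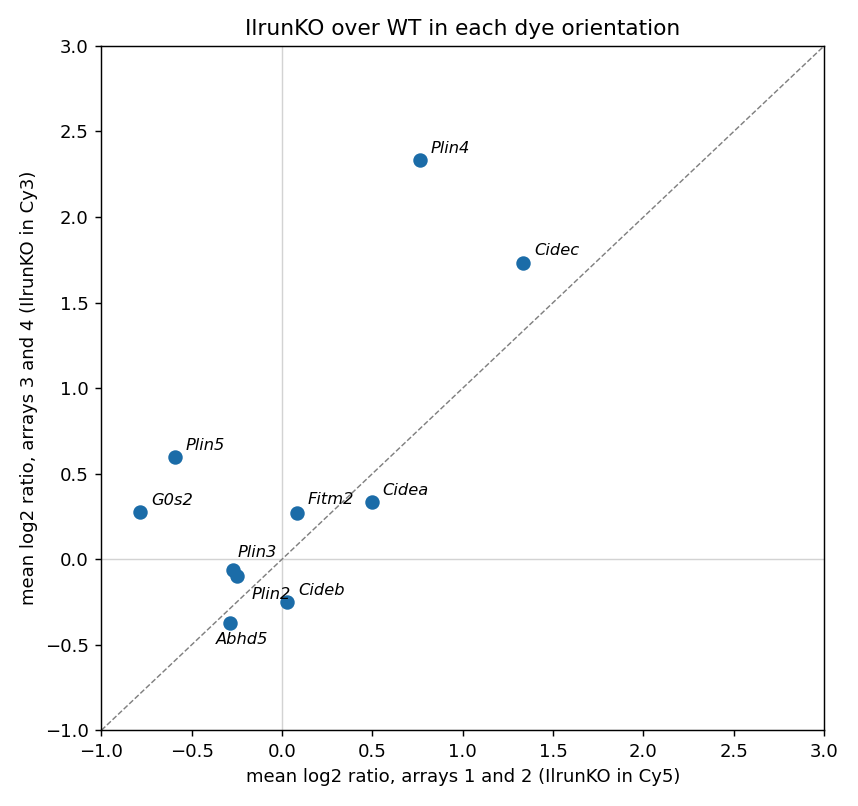
Mean log2 ratio of IlrunKO over WT on arrays 1 and 2, with IlrunKO in Cy5 (horizontal axis), against the mean on arrays 3 and 4, with IlrunKO in Cy3 (vertical axis), for the 10 genes at their brightest probe; the dashed line marks equal values. Plin4, Plin5 and G0s2 stand off the line, at 0.76 against 2.33, -0.59 against 0.59 and -0.79 against 0.27, while Cidec, Cidea and Abhd5 have the same sign in both orientations.

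The cofactors of adipose triglyceride lipase, the enzyme that starts triglyceride breakdown, are G0s2, which inhibits it, and Abhd5 (CGI-58), which activates it and is held at the droplet by perilipins. Abhd5 had 3 probes, all with a mean below 0. At A_52_P273821, the probe nearest the 5′ end, the level was 8.22, 8.07, 8.05 and 8.23 in IlrunKO and 8.58, 8.39, 8.50 and 8.55 in WT livers. The groups were clearly apart, and the log2 ratios of -0.36, -0.32, -0.45 and -0.33 were the most even over the arrays of any member probe. With median centring in place of loess they were less even, at -0.14, -0.093, -0.99 and -0.52. This probe fell, by a mean of 0.36 on the log2 scale with an SD of 0.061 over 4 arrays, or 1.29-fold (limma, adjusted p = 0.0498). The margin was thin: leaving out any 1 array lost the call, with an adjusted p from 0.0966 without array 1 to 0.111 without array 2, 0.146 without array 4 and 0.201 without array 3. Without array 3 or without array 4 only 1 probe of the whole array passed.

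The brightest Abhd5 probe, which stands for the gene in the fit over genes, gave -0.34, -0.24, -0.53 and -0.21, a mean of -0.33 ± 0.15 (SD, n = 4; limma, adjusted p = 0.101). Its levels of 8.81 to 9.10 in IlrunKO were all below those of 9.18 to 9.35 in WT livers. The probe nearest the 3′ end disagreed in part, with -0.035, -0.39, -0.46 and 0.19, a mean of -0.17 ± 0.31 (SD, n = 4; limma, adjusted p = 0.510) and overlapping groups.

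G0s2 (chr1:195098925-195098984) had a level of 10.85, 11.11, 11.86 and 11.32 in IlrunKO and 11.63, 11.90, 11.08 and 11.55 in WT livers, which overlapped. Its log2 ratios of -0.79, -0.79, 0.78 and -0.24 averaged -0.26 ± 0.74 (SD, n = 4; limma, adjusted p = 0.470). Like Plin5, it differed by orientation after loess, with means of -0.79 and 0.27. The 95% interval ran from -0.70 to 0.19. With median centring in place of loess the ratios were -0.46, -0.43, -0.082 and -0.55, all below 0.

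Fitm2, an endoplasmic reticulum protein needed for droplets to bud into the cytosol, stood at 0.20, -0.04, 0.25 and 0.29 (chr2:163294444-163294503). The mean was 0.18 ± 0.15 (SD, n = 4; limma, adjusted p = 0.202). Its level was 7.44, 7.12, 7.39 and 7.41 in IlrunKO and 7.24, 7.15, 7.14 and 7.11 in WT livers, and only the knockout liver of array 2 lay among the WT livers.

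In all, 4 of the 10 genes had levels at their brightest probe that did not overlap between genotypes: Cidea, Cidec and Plin4 were higher in all IlrunKO livers, where 4.79% of all genes tested were so, and Abhd5 was lower, where 4.17% were. Liver is a mixed tissue, so more cells of a type and more RNA per cell cannot be told apart in these values.

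Other genes of the droplet were placed beside the members, and their counts at an unadjusted p under 0.05 stand against 20.5% of all genes. Of the machinery that makes droplets, 10 of 11 listed genes were tested, none passed (limma, with 5 at an unadjusted p under 0.05), and the median was 0.11. The smallest p values there were of Lpin2 (-0.33) and Lpin1 (-0.47), which make diacylglycerol, and of Dgat1 (0.20), which makes triglyceride. Fitm1, the sister gene of Fitm2, stood at 1.35, -0.066, 0.74 and 0.26, again with array 2 lowest, and is named, after its values were seen, because it passed in a fit without array 2.

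Of other droplet surface proteins 9 of 12 were tested, none passed (5 at an unadjusted p under 0.05), and the median was 0.00081. Ldah, a droplet hydrolase, stood at -0.46 ± 0.22 (SD, n = 4; limma, adjusted p = 0.0850), below 0 on all 4 arrays, and Hsd17b13, a hepatocyte droplet enzyme, at -0.20, with Hsd17b11 at 0.35. Of the droplet lipases 9 of 10 were tested, none passed (2 at an unadjusted p under 0.05, about the background), and the median was 0.017. Lipe (hormone-sensitive lipase), Mgll (monoacylglycerol lipase) and Pnpla2 (adipose triglyceride lipase itself) stood at 0.21, 0.22 and 0.22.

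Of 13 regulators of droplet genes none passed (6 at an unadjusted p under 0.05), and the median was -0.12. Pparg, the receptor that drives Cidec, Cidea and Plin4 in fat cells, had levels of 10.19, 9.81, 10.37 and 10.30 in IlrunKO and 9.13, 9.61, 9.56 and 9.58 in WT livers. These groups did not overlap either. The log2 ratios of 1.06, 0.20, 0.80 and 0.71 averaged 0.69 ± 0.36 (SD, n = 4), or 1.62-fold higher, and did not pass (limma, adjusted p = 0.0992). Ppara, the fasting receptor of liver that also acts on droplet genes, stood at -0.18 and Srebf1 at -0.17.

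The hexamer AGGTCA, the half-site that PPAR and other nuclear receptors bind as a repeat, was looked for on either strand of the 300-base RefSeq windows around gene starts (build GRCm38.p6). Windows were found for 9 of the 10 members. It was present in 4 of 11 windows (those of Plin2 and Abhd5 and both of Plin5) and in 16.3% of all 32851 windows, and it was in neither window of Cidec nor in that of Plin4. This describes these windows only, since such sites often lie farther from the start.

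Because Cidec, Plin4 and Cidea are known from fat tissue, a list of 12 adipocyte marker genes was read in the same livers. The defining markers Adipoq (adiponectin), Lep (leptin) and Plin1, the perilipin of the fat cell, were not well above background in any of the 8 channels, and neither were Acvr1c, Trarg1, Slc36a2 and Ucp1. Of the 5 that were tested, Cfd and Adrb3 rose. Cfd, the complement factor adipsin, read 4.63, 3.03, 5.08 and 2.56, a mean of 3.82 ± 1.22 (SD, n = 4) or 14.2-fold higher (limma, adjusted p = 0.0466), and Adrb3, a beta-adrenergic receptor, stood at 1.04 ± 0.34 (adjusted p = 0.0300). Without array 3, without array 4 or with median centring no gene of the whole array rose, so both calls were lost there. Fabp4, abundant in fat cells, stood at -0.11, Retn at 0.14 and Aqp7 at 0.0022, none of which passed. The summed level of the 12 genes was 12.0 to 12.8 in IlrunKO and 11.1 to 11.4 in WT livers on the log2 scale. The genes of this list that rose were Cfd and Adrb3, and the mean level of Cfd went from 7.43 in WT to 11.26 in IlrunKO, so the sum does not show the list as a whole to be higher.

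Marker lists of 4 other liver cell types were read as well. All 10 Kupffer cell markers had a mean above 0, averaging -0.20, 1.00, 0.63 and 0.58 over the list on the successive arrays, with summed log2 levels of 15.2 to 15.8 in IlrunKO and 14.8 to 15.5 in WT livers. Array 2, where Cidec, Plin4 and Pparg were lowest, had the highest Kupffer mean, and array 1 had the only one below 0. All 9 stellate cell markers were below 0 (median -0.28; Colec11 at -0.34 and Hand2 at -0.31 had the smallest p), with summed levels of 13.8 to 14.3 against 14.2 to 14.5. Of the 10 hepatocyte markers 9 had a mean below 0 (median -0.30), 2 of them below 0 on all 4 arrays. The hepatocyte list had means of -0.075, 0.14, -0.53 and -0.49, so it was lower on arrays 3 and 4, where IlrunKO was in Cy3. Here too a dye effect and a difference between mouse pairs cannot be told apart. The summed levels of the hepatocyte list were 19.2 to 19.9 against 19.6 to 20.0. The endothelial list had a median of -0.031 and summed levels of 14.2 to 14.4 against 14.2 to 14.5. No gene of these 4 lists passed in limma (21 of their 36 genes had an unadjusted p under 0.05, against 20.5% of all genes), and their part in the values of the droplet genes was not tested.

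**Figure D4:**
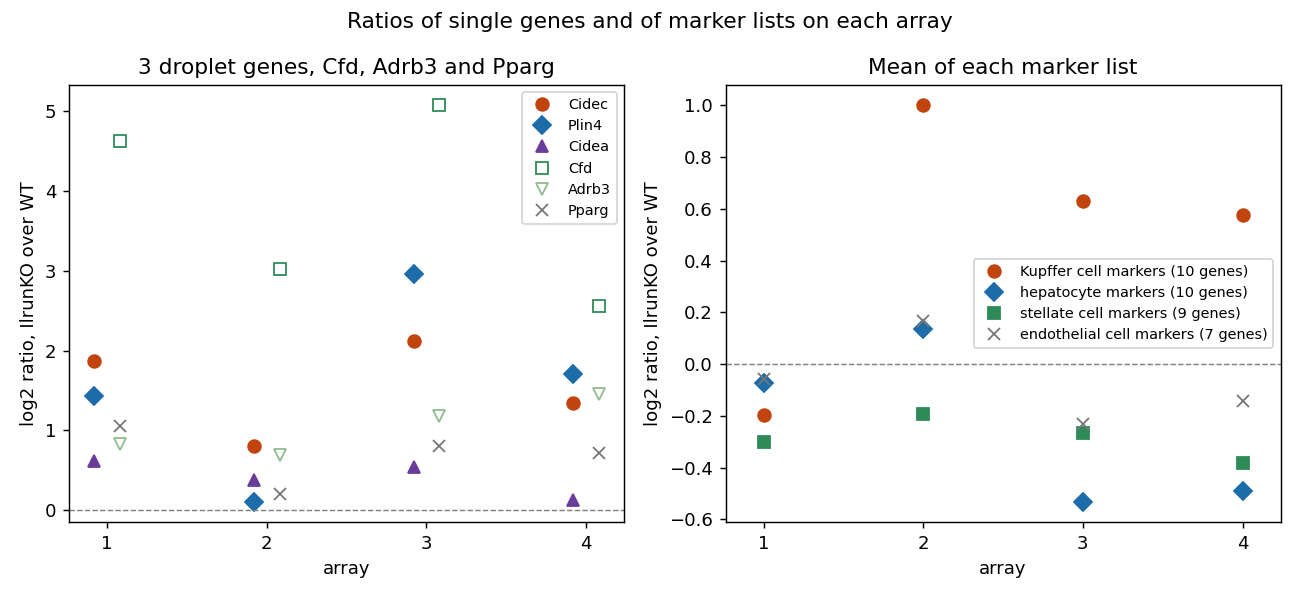
Log2 ratio of IlrunKO over WT on each array for Cidec, Plin4, Cidea, Cfd, Adrb3 and Pparg (left) and for the mean of 4 marker lists (right). All 6 genes are above 0 on every array and Cidec, Plin4 and Pparg are lowest on array 2, where the Kupffer list, at 1.00, is highest.

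Among 15254 named genes, those whose 4 array ratios lay nearest to Plin4 (smallest mean absolute difference) were Cyp2b10 at 0.40 log2 units, Cyp26a1 at 0.45, Cyp2b9 at 0.49, Dnase1 at 0.49 and Cidec at 0.59. Cyp2b10, a drug-metabolising cytochrome, read 1.86, 0.46, 2.66 and 2.22, a mean of 1.80 ± 0.95 (SD, n = 4; limma, adjusted p = 0.0509). Cyp26a1, which breaks down retinoic acid, read 1.14, 0.49, 3.91 and 1.53. Each of the 5 had its lowest ratio on array 2, as Plin4 did, which follows in part from how they were picked. All come from the same 4 pairs of livers, and this nearness is a description of them.

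The mean ratios were also set side by side under 6 ways of processing. Plin4 was 1.42 to 1.59 over these, and the Abhd5 probe that fell was -0.48 to -0.36. The dimmer Cidec probe was 0.69 to 1.39 and Cidea 0.42 to 2.12.

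**Figure D5:**
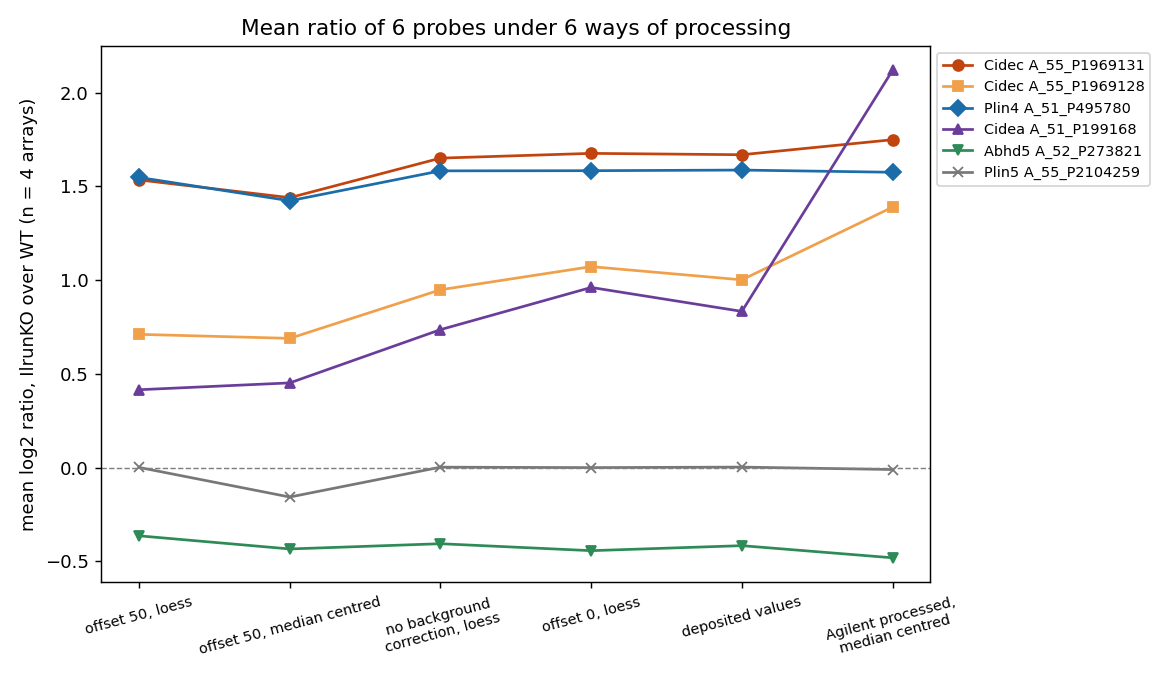
Mean log2 ratio of IlrunKO over WT over 4 arrays (vertical axis) for 6 probes under 6 ways of processing (horizontal axis); lines only join the values of a probe. Plin4 and the brighter Cidec probe stay between 1.42 and 1.75, whereas Cidea rises from 0.42 to 2.12 and the dimmer Cidec probe from 0.71 to 1.39 in the scanner's processed signals.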

How the data were processed

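The authors deposited 1 scanner file per two-colour array, written by the scanner software (Agilent Feature Extraction, version 10.10.1.1, per the file headers). These deposited files hold intensity (mean signal of a spot, median of its background, and a processed signal) and the log10 of Cy5 divided by Cy3. The authors also deposited a value table of log2 ratios, turned to IlrunKO over WT, of which only the tool, limma, is named in the submitters' processing notes; how they were normalized is not given. Genotype and dye of each channel came from the labels.

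Intensities were background-corrected with limma 3.58.1 (R 4.3.3; normexp, offset 50) and loess-normalized within arrays, with control spots at weight 0 and outlier spots left out. Spots of a probe were averaged. Each gene was read at its brightest probe and kept if 3 or more of the 4 channels of either genotype were well above background, which left 19668 genes. limma fitted dye and genotype terms with Benjamini-Hochberg adjustment (two-sided, threshold 0.05), and a second fit took all 24353 probes kept. Channel levels were made with loess and Aquantile scaling and are open to dye bias. With 4 arrays the median 95% half-width was 0.15 log2 units. All 95% intervals come from fits with the dye term and leave out differences between dye orientations. The script was tested on simulated data. Probes were named through their accession (26055), a symbol or synonym (4125) or the file's own name (9249). All 54 probes that matched a RefSeq window of their own gene did so as written in the files, which settled the direction of the printed sequences.

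Every probe of the 10 genes was described. Of each other droplet list the 3 genes with the smallest p were named, of the adipocyte list every gene, of other marker lists up to 2, and for the member with the largest ratio the 5 nearest genes. The members and lists were chosen with earlier results of these data known. Alternatives covered the dye term, background correction, normalization, how variance was modelled, which probe stood for a gene, the dim-probe filter, separate channels, the deposited values, each array left out, and the threshold.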

Additional observations from a re-analysis of the deposited data

Results flagged for a closer look

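Of 42 groups of 4 livers (3 of each probe: both genotypes' levels and the ratios), 1 held a liver far from the other members by Dixon's 95% limit, where chance flags about 1 in 20. The Fitm2 level of the IlrunKO liver on array 2 was 7.12 on the log2 scale, with the other IlrunKO livers between 7.39 and 7.44. The cause was not tested.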

How the results depend on the processing

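The count of the 10 genes past the threshold was 0, and became 1 (Cidec) without the dye term, without background correction, with offset 0, with a trended robust variance and in the deposited values, 2 at a threshold of 0.1 (Cidec and Plin4) and 5 in the separate-channel fit, which called 2496 genes in all. Leaving out 1 array gave 0 to 1. The count of probes was 2, and became 1 without the dye term (the brighter Cidec probe alone) or when all 4 channels of a genotype had to be above background, 0 with the scanner's processed signals and with median centring, 3 without background correction, with a trended robust variance and in the deposited values (the brighter Cidec probe added), 7 in the separate-channel fit and 6 at 0.1, with 0 to 2 when 1 array was left out. With offset 0 it stayed at 2, with the brighter Cidec probe in place of that of Abhd5. The count of other droplet genes was 0, and became 5 in the separate-channel fit (Dgat1, Ldah, Lipe, Mgll and Pparg) and 2 at 0.1 (Ldah and Pparg), with 0 to 2 when 1 array was left out: Pparg without array 1, and Pparg and Fitm1 without array 2. Over all genes 270 passed, against 61 with processed signals, 1 with median centring, 1 without array 3, 1 without array 4, 181 without the dye term, 442 without background correction, 450 in the deposited values, 465 without array 1 and 1124 at 0.1. Cidec passed in 8 of 15 alternatives (1.12 to 1.80; adjusted p 0.00370 to 0.210), its dimmer probe in 10, the Abhd5 probe in 6 and Plin4 in 1 (1.21 to 1.88). Plin5, near 0, changed sign with offset 0 (-0.00026), processed signals (-0.011) and median centring (-0.16), and ranged from -0.10 to 0.10 when 1 array was left out. The other 9 genes kept their sign in all 15 alternatives, but the size of some that were not called moved: G0s2 went from -0.26 to -0.51 without array 3 and -0.0011 without array 4, Cideb from -0.11 to -0.018 without array 3 and Plin2 from -0.17 to -0.065 without array 2. Except where fewer arrays or another threshold made the change, the cause was not tested. With 1 array left out, another stood alone for its dye orientation. Probes near background, such as that of Cidea, have the least certain size.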
